A study of Mus musculus with 6 samples.

Results

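Translation initiation factors bring the small ribosomal subunit and the initiator tRNA to an mRNA and place them at the start codon, and elongation factors then carry tRNAs to the ribosome and move it along the coding sequence. The genes of both groups were taken by name: every gene whose symbol begins with Eif and a digit from 1 to 6, or with Eef and 1 or 2, without the Eif2ak genes, which encode kinases of eIF2. The rule used no measured value and found 60 of the 14912 genes in the table, 48 for initiation and 12 for elongation, and they were sorted into 12 complexes or functional groups. The elongation genes include the enzymes that modify eEF1A and eEF2.

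The libraries came from 3' end sequencing, which reads the end of each polyadenylated RNA, of bone marrow cultures from C57BL/6J mice of genotype WT, labelled as dendritic cells. The 3 samples titled tol_DC_Control were grown with FLT3LG, a cytokine from which bone marrow progenitors form dendritic cells, at 50 ng/ml, and the 3 titled tol_DC_rMDK were grown in the same way and also received human recombinant MIDKINE, a secreted growth factor that binds heparin, at a concentration of 10 ng/ml over the final 2 days. FLT3LG medium was renewed on day 7 in all 6. The labels give no age and do not say whether samples came from separate mice or cultures, so a p-value here measures spread that may be technical.

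Initiation is the step at which cells mostly set their rate of protein synthesis. eIF2 carries the initiator tRNA, and phosphorylation of its alpha subunit by the Eif2ak kinases lowers general initiation while raising translation of ATF4, a transcription factor for amino acid supply genes. eIF4F, made of the cap-binding protein eIF4E, the scaffold eIF4G and the helicase eIF4A, loads the mRNA, and the 4E-BPs block it by holding eIF4E until mTORC1 phosphorylates them. The mRNAs of many elongation factors and ribosomal proteins begin with a pyrimidine tract and are translated under mTORC1 control, which a measurement of RNA abundance does not read.

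The depth was 5089338 to 5532055 reads per control library and 5685055 to 6453768 per midkine library. The share of mitochondrial ribosomal RNA was 9.33% to 9.86% of reads in control and 18.1% to 20.9% in midkine libraries. Markers of conventional dendritic cells were present in every library, none at 0, with summed levels of 32191 to 32642 normalised reads in control and 33888 to 37017 in midkine libraries (3 of 10 called higher, 4 lower). Most of that sum was H2-Ab1 and Cd74. The other 8 markers summed to 5052 to 5934 in control and 4069.7 to 4272 in midkine libraries. Of these 8, Xcr1 (log2 fold change -1.58) and Clec9a (-1.03), of type 1 conventional cells, were lower, as were Zbtb46 (-0.47) and Batf3 (-0.34). Itgax (0.83) and Sirpa (0.26) were higher. The summed level of 7 stromal markers was 13843 to 17137 in control and 36187 to 39082 in midkine libraries (6 higher, 1 lower), that of 8 plasmacytoid dendritic cell markers 6305 to 6498 against 1724 to 1879.6 (all 8 lower), and that of 9 genes of dividing cells 9527 to 9719 against 4720 to 5824 (all 9 lower). For 8 macrophage markers the sums were 3639 to 5248 and 4531 to 4916 (3 higher, 2 lower). For 8 neutrophil markers they were 474 to 591 and 35.7 to 63.1, with 2 of the 3 that were tested lower. Most of the control sum was S100a8 (mean 292) and S100a9 (mean 215). Ly6g and Elane were at 0 in all midkine libraries. They had only 1 and 5 reads over the control libraries, too few to show a change. These cell markers move with the groups, and their part in the values below was not tested. In bulk RNA, fewer cells of a type and less RNA per cell cannot be told apart.

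Promoter stretches are shown first, to compare the letters around a RefSeq start of each gene with the direction of its change. RefSeq promoters (GRCm38.p6, 250 bases before to 50 after a gene's start) were matched for 47 of the 60 members and searched on both strands for the ATF4 response element core TGATGNAA, the cyclic AMP element TGACGTCA and the E-box CACGTG, none of which contains another. The ATF4 core was found in 2 members, Eif2s3x and Eef2k (4.26%), against 3.97% of 32851 promoters and 2.83% of 8837 tested genes with a promoter, and in 7 of 19 promoters of ATF4 and its target genes (36.8%). The stretches below, 5′ to 3′ on the gene's strand, show the core in capitals in both members and in 2 of the target genes, Asns and Atf3. They lie at chrX:94212729-94212758 (minus strand), chr7:120851094-120851123 (plus strand), chr6:7693214-7693243 (minus strand) and chr1:191183425-191183454 (minus strand) of GRCm38.p6. By the GENCODE vM21 positions, the stretches of Eif2s3x and Eef2k lie inside the gene, and Eef2k starts at chr7:120842831. In Eif2s3x, Eef2k and Atf3 the core lies on the opposite strand, so the capitals show its reverse complement.
Eif2s3x: ttcgccatcatTTTCATCAggtctatgccg
Eef2k: ctttctgcttgTTTCATCAagctcagcttg
Asns: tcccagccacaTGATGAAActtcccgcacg
Atf3: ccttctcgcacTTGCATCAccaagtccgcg

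The E-box was found in the promoters of 13 of 47 members (27.7%), against 7.15% of all promoters and 12.2% of those tested genes. For all elements, members and tested genes were counted per gene, with a match in any of its promoters, and all promoters per promoter. Only the share of tested genes is thus counted in the same way as that of members. The E-box was in 3 of 11 members called higher with midkine, 3 of 9 called lower and 7 of 27 not called. The 6 called members with an E-box are printed with it in capitals, higher genes first, as the matches stand in genes of both directions. Their positions are chr10:81176576-81176605 (plus), chr7:108934335-108934364 (plus), chr7:28981915-28981944 (minus), chr11:69672595-69672624 (minus), chr16:20672661-20672690 (plus) and chr11:69921443-69921472 (minus). By the GENCODE vM21 positions, the stretches of Eif4g1 and Eif5a lie inside the gene and the others before it. The cyclic AMP element was in 1 member, Eef2 (2.13% of members, 1.79% of all promoters and 3.68% of tested genes). A match is a description of these letters and not of a bound site.
Eef2: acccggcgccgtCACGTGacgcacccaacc
Eif3f: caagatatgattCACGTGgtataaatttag
Eif3k: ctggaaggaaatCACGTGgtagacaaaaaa
Eif4a1: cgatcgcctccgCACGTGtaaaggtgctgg
Eif4g1: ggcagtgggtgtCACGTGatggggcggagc
Eif5a: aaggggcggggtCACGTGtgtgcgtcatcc

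With midkine, the factors split in both directions. Of the 59 members tested with limma (mean of at least 10 normalised reads, adjusted p under 0.05 over all 11844 genes tested), 15 were higher (25.4%) and 12 lower (20.3%), and 32 were not called. Of all genes tested, 20.9% were called higher and 21.8% lower, so the share of members called lies near the background. The groups did not overlap for 16 members higher and 17 lower with midkine, against 25.1% and 26.2% of all genes tested. The median log2 fold change was 0.02 over the members and -0.0086 over all genes tested. Initiation factors gave 11 higher and 11 lower of 48, and elongation genes 4 higher and 1 lower of the 11 tested. The member below the minimum, the eEF1A lysine methyltransferase Eef1akmt3, had 9 reads over the control and 17 over the midkine libraries.

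**Figure D1:**
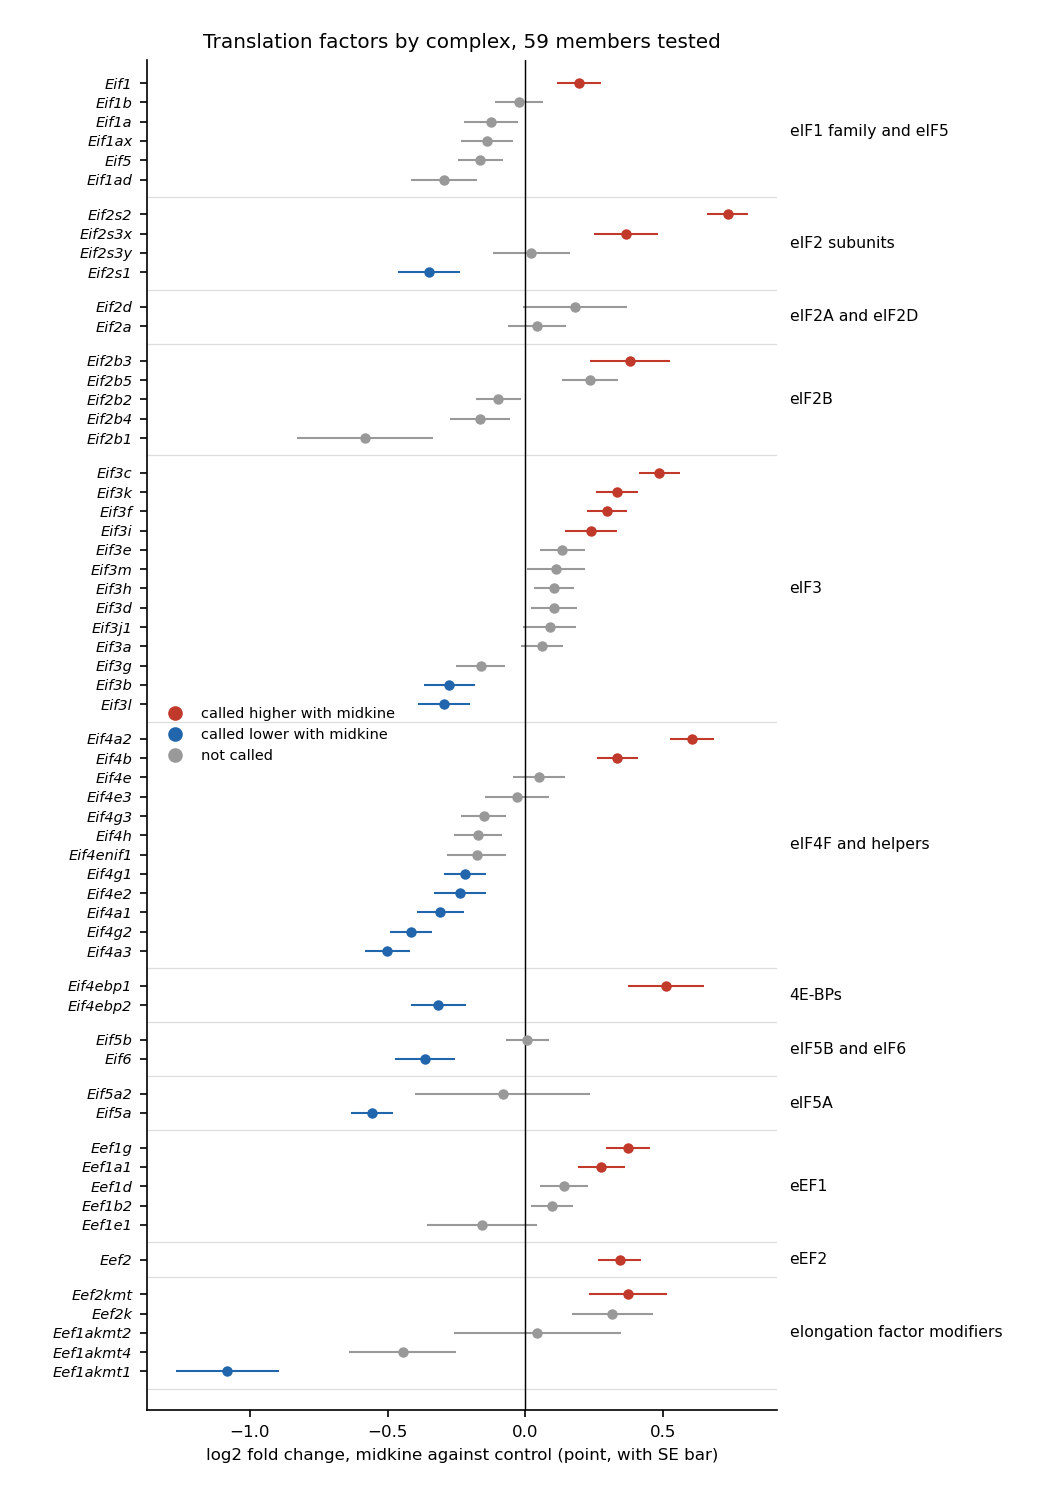
Log2 fold change of midkine against control for the 59 members tested, 1 row per gene, grouped by complex, with bars for the standard error (3 libraries per group). Red points are called higher, blue lower and grey not called; Eif2s2 (0.74) lies farthest right and Eef1akmt1 (-1.08) farthest left, and eIF2, eIF3 and eIF4F hold calls of both directions.

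The direction of the whole set depended on how libraries were scaled to one another. With the deposited scaling and with TMM, 15 members were higher and 12 lower (TMM called 21.1% of all genes higher and 21.6% lower). Quantile normalization gave 13 higher and 14 lower, total counts without 3 ribosomal RNA rows 11 and 19, and total counts 3 and 28, while the median of all genes tested moved to -0.03, -0.09 and -0.26. Over all genes, quantile normalization called 19.9% higher and 21.8% lower, total counts 10.8% higher and 40.7% lower, and total counts without ribosomal RNA rows 17.1% and 26.8%. The members' median moved along, to -0.04, -0.055 and -0.23, so it stayed close to that of all genes in each. Among other tools, edgeR called 15 members higher and 12 lower (21.8% and 21.7% of all genes), DESeq2 11 and 11 (14.7% and 14.9%), and limma with no variance trend 10 and 5 (17.9% and 17.4%). The 8 members called in each of the 20 alternatives were Eif2s2, Eif3c and Eif4a2, higher, and Eef1akmt1, Eif3l, Eif4a3, Eif4g2 and Eif5a, lower.

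**Figure D2:**
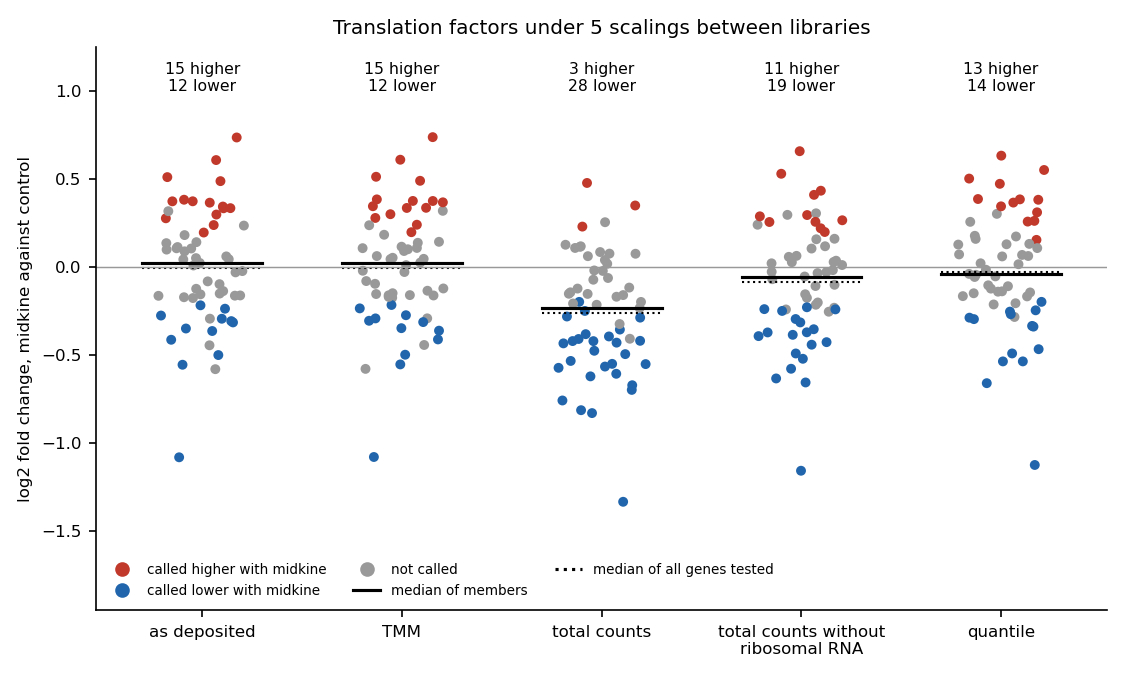
Log2 fold change of each member (1 point) under 5 scalings between libraries, with the members' median (solid line), the median of all genes tested (dotted line) and the number of members called. Both medians fall together with total counts, to -0.23 and -0.26, and the calls go from 15 higher and 12 lower to 3 and 28.

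The subunits of eIF2, the carrier of the initiator tRNA, moved apart: 2 were higher, 1 lower and 1 not called. Eif2s2, the beta subunit (chr2:154871410-154892935, GRCm38), had 3027, 3249 and 3161 normalised reads in the control libraries and 5613, 4934 and 5186 in the midkine libraries. Every midkine library lay above every control library, a 1.67-fold rise (log2 fold change 0.74, SE 0.075, limma adjusted p = 1.3e-08) and the largest of the members tested. The alpha subunit Eif2s1 (chr12:78861819-78887010), which carries the phosphorylated serine, had 241, 253 and 209 in control and 198, 169.5 and 183 in midkine libraries. The groups did not overlap and Eif2s1 was lower by limma (log2 fold change -0.35, SE 0.11, adjusted p = 0.0143), a call lost without control replicate 2 (-0.29, adjusted p = 0.0792) or midkine replicate 2 (-0.29, adjusted p = 0.0552).

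Of the 2 genes for the gamma subunit, the X-linked Eif2s3x was higher (log2 fold change 0.37, limma adjusted p = 0.0135), while the Y-linked copy Eif2s3y was not called (0.02, adjusted p = 0.915). As near-identical copies, they can share reads. The Eif2s3x call was lost without control replicate 2 (0.32), control replicate 3 (0.27) or midkine replicate 3 (0.34). The alternative initiator tRNA carriers Eif2a and Eif2d were not called (0.04 and 0.18).

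eIF2B is the exchange factor that reloads eIF2 with GTP, and 1 of its 5 subunits was called. Eif2b3, the gamma subunit, was higher (log2 fold change 0.38, limma adjusted p = 0.0360), a call lost without control replicate 1 (0.39) or 2 (0.32), or midkine replicate 1 (0.40) or 2 (0.27). The catalytic epsilon subunit Eif2b5 had a value of 0.24 (adjusted p = 0.0658). Eif2b1, the alpha subunit that senses phosphorylated eIF2, had -0.58 (adjusted p = 0.0613) on 112 reads over the control and 72 over the midkine libraries, which limits its precision. Eif2b2 (-0.10) and Eif2b4 (-0.16) were not called.

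Among the eIF1 family and eIF5, which fix the start codon, 1 of 6 was called. Eif1, which guards against wrong start codons, was higher by 0.20 on the log2 scale (limma adjusted p = 0.0480), with groups that overlapped, and the call was lost in 12 of 20 alternatives, among them those without control replicate 2 (0.16) or 3 (0.17) or midkine replicate 1 (0.20), 2 (0.16) or 3 (0.23). Its value turned to -0.063 with total counts. Eif5, the GTPase activator of eIF2, had -0.16 and Eif1ad -0.29 (adjusted p = 0.109 and 0.0519). Eif1a, Eif1ax and Eif1b lay between -0.14 and -0.02 and were not called.

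eIF3, the large scaffold on the small ribosomal subunit, gave 4 higher and 2 lower of 13 subunits, with a median log2 fold change of 0.11. Eif3c (chr7:126546455-126566411), a core subunit, had 1462, 1584 and 1472 normalised reads in control and 2192, 2168 and 1978 in midkine libraries. The lowest midkine library stood above the highest control library, and the rise was 1.40-fold (log2 fold change 0.49, SE 0.076, limma adjusted p = 1.0e-05). Eif3k, a peripheral subunit, had 1051, 1182 and 1105 in control and 1473, 1366 and 1365 in midkine libraries. It was higher in all 3 midkine libraries than in any control library (log2 fold change 0.33, SE 0.078, limma adjusted p = 0.00114).

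Eif3f (0.30, limma adjusted p = 0.00150) and Eif3i (0.24, adjusted p = 0.0442) were the other subunits higher, and the groups of Eif3i overlapped. Its call was lost without control replicate 1 (0.22) or 3 (0.19) or midkine replicate 1 (0.23) or 3 (0.18), and its value was -0.020 with total counts. Eif3l, the partner of Eif3k at the edge of the complex, was lower (-0.29, adjusted p = 0.0129), as was the core subunit Eif3b (-0.28, adjusted p = 0.0178), whose call was lost without control replicate 1 (-0.23) or midkine replicate 3 (-0.20). The largest subunit, Eif3a, had 0.06 (adjusted p = 0.559), and Eif3d, Eif3e, Eif3h, Eif3j1 and Eif3m lay between 0.09 and 0.14, none called. Eif3g had -0.16 (adjusted p = 0.154).

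Of eIF4F and its helpers, 5 of 12 were called lower (41.7%, against 21.8% of all genes tested) and 2 higher. The median log2 fold change of the 12 was -0.17. Among the 5 lower, Eif4a1 and Eif4g1 encode eIF4F subunits, and Eif4a3, Eif4e2 and Eif4g2 are relatives of such subunits. The helicase of the complex has 2 forms, and they moved in opposite directions. Eif4a1 (chr11:69666936-69672423) had 1455, 1272 and 1226 normalised reads in control and 976, 1067 and 1148 in midkine libraries. Its groups did not overlap, though midkine replicate 3 came close to control replicate 3 (log2 fold change -0.31, SE 0.085, limma adjusted p = 0.00469). Eif4a2 (chr16:23107444-23114136) had 826, 735 and 800.4 in control and 1146, 1248 and 1203 in midkine libraries, well apart (log2 fold change 0.61, SE 0.080, limma adjusted p = 8.4e-07). Exons of Eif4a2 overlap those of Rfc4 on the other strand, and with the strand setting of the counting not known, reads of both genes cannot be told apart in its values and in the ratio given further on.

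Eif4a3, the related helicase of the exon junction complex, had 860.4, 820.1 and 859.8 in control and 608, 559.9 and 628 in midkine libraries. All midkine libraries were below all control libraries (log2 fold change -0.50, SE 0.082, limma adjusted p = 2.0e-05). Eif4b, which stimulates the eIF4A helicase, had 1621, 1507 and 1527 in control and 1984, 1880.4 and 2003 in midkine libraries. It rose in all of them (log2 fold change 0.33, SE 0.074, limma adjusted p = 0.000685), and the related helper Eif4h had -0.17 (adjusted p = 0.112).

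The cap-binding protein Eif4e had 431, 436 and 359 normalised reads in control and 435, 429.8 and 399.5 in midkine libraries. The groups overlapped throughout, and the log2 fold change of 0.05 had a 95% interval from -0.15 to 0.25 (limma adjusted p = 0.708). Its relative Eif4e2, which binds caps without recruiting ribosomes, was lower (-0.24, adjusted p = 0.0449), a call lost without control replicate 2 (-0.21) or 3 (-0.22) or midkine replicate 2 (-0.13) or 3 (-0.27). Eif4e3 (-0.03) and the eIF4E transporter Eif4enif1 (-0.18) were not called.

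Of the 3 scaffold genes, 2 were lower. Eif4g1 had 1588, 1567 and 1652 normalised reads in control and 1449, 1276 and 1412 in midkine libraries. The groups did not overlap (log2 fold change -0.22, SE 0.077, limma adjusted p = 0.0240), and the call was lost without control replicate 3 (-0.20, adjusted p = 0.102) or midkine replicate 2 (-0.16, adjusted p = 0.106). Eif4g2 (chr7:111067750-111083030), a relative that lacks the eIF4E binding site, had 3858, 3491 and 3290.2 in control and 2665, 2530.2 and 2778 in midkine libraries. Its lowest control library stood above its highest midkine library (log2 fold change -0.41, SE 0.077, limma adjusted p = 1.0e-04). Eif4g3 had -0.15 (adjusted p = 0.141).

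The 4E-BPs, which hold eIF4E away from eIF4G, moved in opposite directions. Eif4ebp1, also a known ATF4 target, had 87.8, 93.3 and 119.9 normalised reads in control and 141, 149 and 136 in midkine libraries. Each midkine library was higher than each control library (log2 fold change 0.51, SE 0.14, limma adjusted p = 0.00421). Eif4ebp2 (chr10:61428491-61452661) had 647, 532 and 498 in control and 491, 419 and 432 in midkine libraries. Control replicate 3 and midkine replicate 1 were nearly equal, and Eif4ebp2 was lower (log2 fold change -0.32, SE 0.10, limma adjusted p = 0.0127), a call lost without control replicate 1 (-0.21, adjusted p = 0.0940) or midkine replicate 3 (-0.29, adjusted p = 0.0541).

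Of the factors for joining of the large ribosomal subunit, Eif5b, the GTPase of that step, was not called (0.01, limma adjusted p = 0.948). Eif6, which keeps the large subunit from joining too early, had 356, 379 and 378 normalised reads in control and 268, 347 and 256 in midkine libraries. The groups did not overlap, with midkine replicate 2 next to the controls (log2 fold change -0.36, SE 0.11, limma adjusted p = 0.00821). The call was lost without midkine replicate 3 (-0.28, adjusted p = 0.0714).

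eIF5A, named for initiation, works mainly in elongation and termination and carries hypusine, a modified lysine. Eif5a (chr11:69916714-69921958) had 1217, 1309.9 and 1268 normalised reads in control and 895, 852 and 833 in midkine libraries. All 3 midkine libraries lay far below the controls, 1.47-fold lower (log2 fold change -0.56, SE 0.077, limma adjusted p = 1.9e-06). Its relative Eif5a2 had 52 reads over the control and 46 over the midkine libraries and was not called (-0.08, adjusted p = 0.861). The enzymes that make hypusine, Dhps (-0.41, adjusted p = 0.0507) and Dohh (-0.13, adjusted p = 0.377), were not called either.

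The core elongation factors went up or were not called. Eef1a1 (chr9:78478449-78489151), which delivers tRNAs to the ribosome, had 19709, 18063 and 17098 normalised reads in control and 21770.0, 23091 and 21519 in midkine libraries. The groups did not overlap (log2 fold change 0.28, SE 0.084, limma adjusted p = 0.00993), and the call was lost without control replicate 3 (0.23, adjusted p = 0.0900). Eef1g, a subunit of the complex that recharges eEF1A with GTP, had 1151, 1202 and 1322 in control and 1704, 1492 and 1563 in midkine libraries. It was higher in all midkine libraries (log2 fold change 0.37, SE 0.080, limma adjusted p = 0.000495).

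The exchange subunits Eef1b2 (0.10, limma adjusted p = 0.318) and Eef1d (0.14, adjusted p = 0.209) and the associated Eef1e1 (-0.16, adjusted p = 0.563) were not called. Eef2 (chr10:81176631-81182498), the translocase, had 9226, 10053 and 9758 normalised reads in control and 12004, 12897 and 11933 in midkine libraries. These values do not overlap and gave a 1.27-fold rise (log2 fold change 0.34, SE 0.077, limma adjusted p = 0.000821). With total counts Eef1a1, Eef1g and Eef2 had 0.02, 0.11 and 0.08 and lost their calls, and Eef2 also did with quantile normalization (0.07, adjusted p = 0.376).

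Among the enzymes that modify elongation factors, 1 of the 5 tested was higher and 1 lower. Eef1akmt1 (chr14:57549597-57571612), a lysine methyltransferase of eEF1A, had 69.9, 62.5 and 73.0 normalised reads in control and 34.9, 30.2 and 30.3 in midkine libraries. It was 2.15-fold lower, the largest change of the members tested, with every midkine library far under the controls (log2 fold change -1.08, SE 0.19, limma adjusted p = 4.3e-05). Eef2k, the kinase that inhibits eEF2, had 74.6, 84.9 and 83.4 in control and 108, 88.9 and 107 in midkine libraries. Its groups did not overlap, but midkine replicate 2 came close to the controls and the gene did not pass the test (log2 fold change 0.32, SE 0.15, limma adjusted p = 0.0842).

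The eEF2 methyltransferase Eef2kmt was higher (0.37, limma adjusted p = 0.0358), a call lost without control replicate 2 (0.27) or midkine replicate 1 (0.39), 2 (0.37) or 3 (0.36). Exons of Eef2kmt overlap those of Alg1 on the other strand, with the same limit as for Eif4a2 and Rfc4. The other eEF1A methyltransferases Eef1akmt2 (0.04) and Eef1akmt4 (-0.45, adjusted p = 0.0658) were not called.

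**Figure D3:**
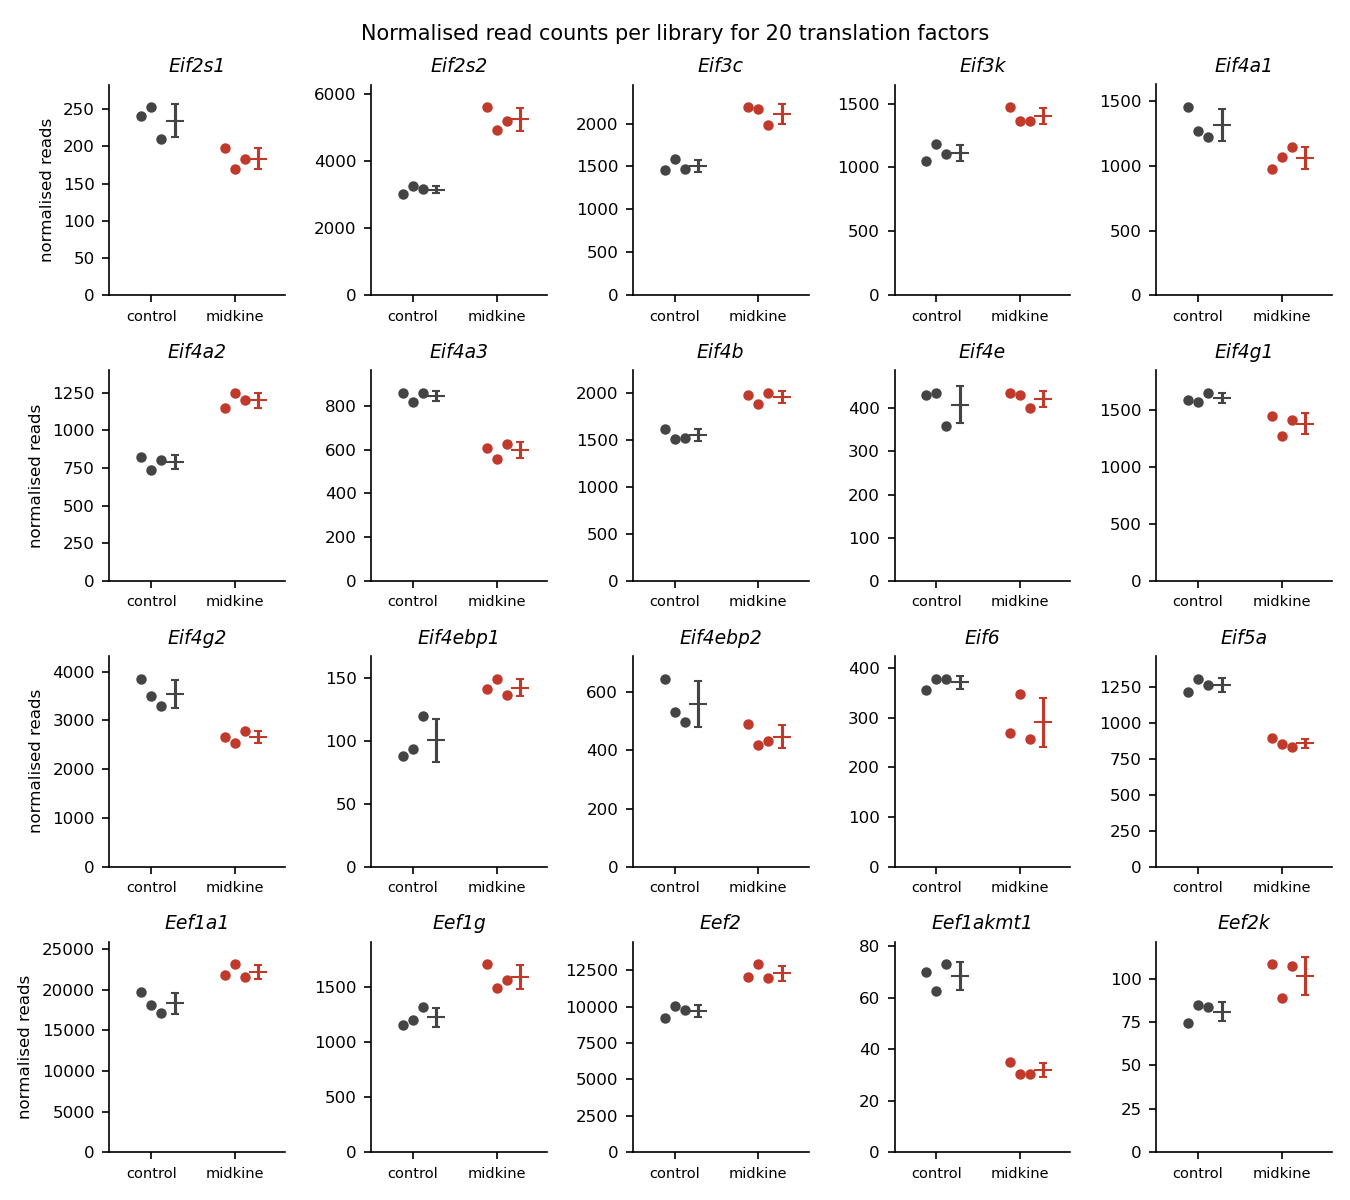
Normalised read counts in each library for 20 members, 1 panel per gene and 1 point per library (control black, midkine red), with the group mean and SD beside the points (n = 3). Each vertical axis starts at 0; Eif2s2, Eif4a2, Eif5a and Eef1akmt1 are wide apart between groups, while Eif4e overlaps.

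No scaling factor enters a ratio of 2 genes within a library, so 5 pairs of members were compared in this way. The pairs were chosen after their values were seen and are a description with no test, and a ratio of reads is not a ratio of protein. Eif4a2 over Eif4a1 was 0.567, 0.578 and 0.653 in control and 1.17, 1.17 and 1.05 in midkine libraries, a mean of 0.599 ± 0.0467 against 1.13 ± 0.0721 (SD, n = 3). Eif4ebp1 over Eif4ebp2 was 0.136, 0.175 and 0.241 in control and 0.287, 0.357 and 0.315 in midkine libraries. Both pairs were separate between groups, by 0.92 and 0.83 on the log2 scale.

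The ratio of Eif2s2 to Eif2s1 was 12.6, 12.8 and 15.1 in control and 28.3, 29.1 and 28.4 in midkine libraries, a log2 difference of 1.09. For the eIF3 core subunits Eif3c and Eif3b it was 2.69, 3.22 and 2.98 against 4.94, 4.92 and 5.20 (0.76), and for Eef2 over Eif5a 7.58, 7.67 and 7.69 against 13.4, 15.1 and 14.3 (0.90). In each of the 5 pairs the reads of both genes changed unequally, and a factor per library cancels in such a ratio.

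**Figure D4:**
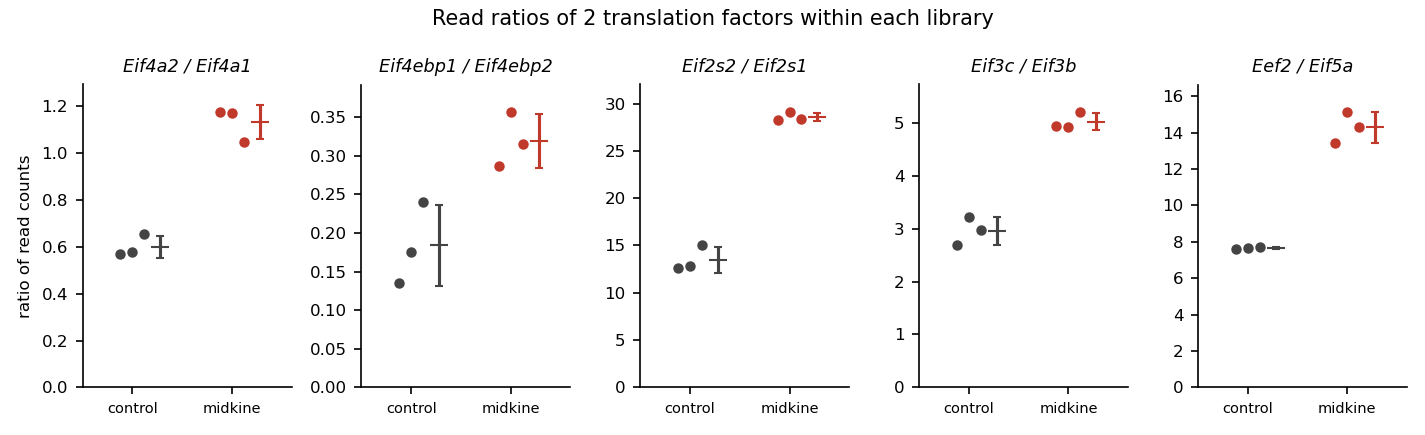
Ratio of the reads of 2 members in each library, 5 pairs, with 1 point per library and the group mean and SD (n = 3). All 5 ratios are higher in all 3 midkine libraries than in any control library; Eif4a2 over Eif4a1 goes from 0.599 to 1.13 on average.

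The share of reads taken by all 60 members was 1.52% ± 0.0698 in control and 1.43% ± 0.0531 in midkine libraries (SD, n = 3). Without the ribosomal RNA rows it was 1.88% ± 0.0352 against 2.00% ± 0.0128. The sign of this difference therefore turned with the ribosomal RNA. Over all reads, eEF1 and eEF2 took 0.732% ± 0.0397 in control and 0.733% ± 0.0435 in midkine libraries, and the initiation factors 0.784% ± 0.0301 and 0.690% ± 0.00966. Without the ribosomal RNA rows these shares were 0.903% ± 0.0226 and 1.02% ± 0.0257 for eEF1 and eEF2, and 0.967% ± 0.0145 and 0.965% ± 0.0208 for the initiation factors.

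Genes of translation and its control were read from 6 lists chosen by function and from the ribosomal proteins. The list of ATF4 and its target genes also holds genes outside translation, such as those of amino acid supply. Of 82 tested in the 6 lists, 32 were higher (39.0%) and 11 lower (13.4%), against 20.9% and 21.8% of all genes tested. The list of ATF4 and its target genes gave 18 of the 32 higher and 1 of the 11 lower. The median log2 fold change of the 82 was 0.15. Of 72 ribosomal protein genes, 57 were higher, with a median log2 fold change of 0.30, and the count of higher genes fell to 29 with quantile normalization and 11 with total counts.

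ATF4 and its target genes had the highest median of these lists: 18 of 20 were higher, 1, Psat1, a serine synthesis enzyme, was lower (-0.62), and Shmt2 was not called (0.26). Their median log2 fold change was 1.27. Ddit4, an inhibitor of mTORC1, was at 57.5 ± 1.98 normalised reads in control and 335 ± 8.13 in midkine libraries (SD, n = 3, log2 fold change 2.52, limma adjusted p = 7.5e-15). Trib3 (2.47), Ddit3 (2.10) and Cebpb (1.97) were the other genes of the list with the smallest p, and Atf4 itself rose by 0.59.

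Cytosolic tRNA synthetases, which charge tRNAs, include the scaffold proteins Aimp1 and Aimp2 here. Of 22, 10 were higher (45.5%) and 2 lower (9.09%), against 20.9% and 21.8% of all genes tested. Sars, the serine enzyme, was at 526 ± 18.8 in control and 1217 ± 184 in midkine libraries (SD, n = 3, log2 fold change 1.20, limma adjusted p = 1.6e-10). Mars (1.14), Cars (1.04) and Eprs (0.74) were also higher, and Farsa (-0.44) and Aimp2 (-0.39) were lower. Exons of Mars overlap those of Ddit3 on the other strand. With the strand setting not known, reads of both genes cannot be told apart in the values of either.

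Regulators of eIF2 phosphorylation were called in both directions, 3 of 10 each way (30%). With so few genes, this lies near the 20.9% higher and 21.8% lower of all genes tested. Eif2ak2, the kinase activated by double-stranded RNA and an interferon-induced gene, was at 195 ± 15.4 in control and 90.6 ± 17.2 in midkine libraries (SD, n = 3, log2 fold change -1.12, limma adjusted p = 4.5e-07). Ppp1r15a, the phosphatase subunit that removes the phosphate, was at 82.1 ± 17.0 and 162 ± 15.8 (0.99, limma adjusted p = 5.8e-06). Impact, an inhibitor of the amino acid sensing kinase, was higher (0.53), and Abcf1, which promotes initiation with eIF2, was lower (-0.40). Among the other kinases, Eif2ak1, which senses heme, was lower (-0.36) and Eif2ak3, of the endoplasmic reticulum, higher (0.41), and Eif2ak4 was not called (0.28).

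In the list of mTORC1 and cap-binding kinases, 0 of 16 were higher and 4 lower (25%, near the 21.8% of all genes tested) by limma, and 0 were higher at an unadjusted p under 0.05 or by edgeR or DESeq2. The 4 were Deptor (-0.69), an mTOR inhibitor, Pdcd4 (-0.53), which blocks eIF4A, Lamtor1 (-0.41), which anchors mTORC1 at the lysosome, and Mlst8 (-0.34), an mTOR subunit, whose call was lost without control replicate 2 (-0.31) or midkine replicate 1 (-0.32) or 3 (-0.34). Mtor itself had 0.14 and was not called. Of 12 genes of termination, recycling and poly(A) binding, Denr was lower (-0.35), a call lost without control replicate 1 (-0.23), and Gspt2 higher (0.89) at 8.41 ± 0.0825 against 16.6 ± 3.05 normalised reads. That low-count call was lost when any 1 of the 6 libraries was left out (0.76 to 0.97).

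**Figure D5:**
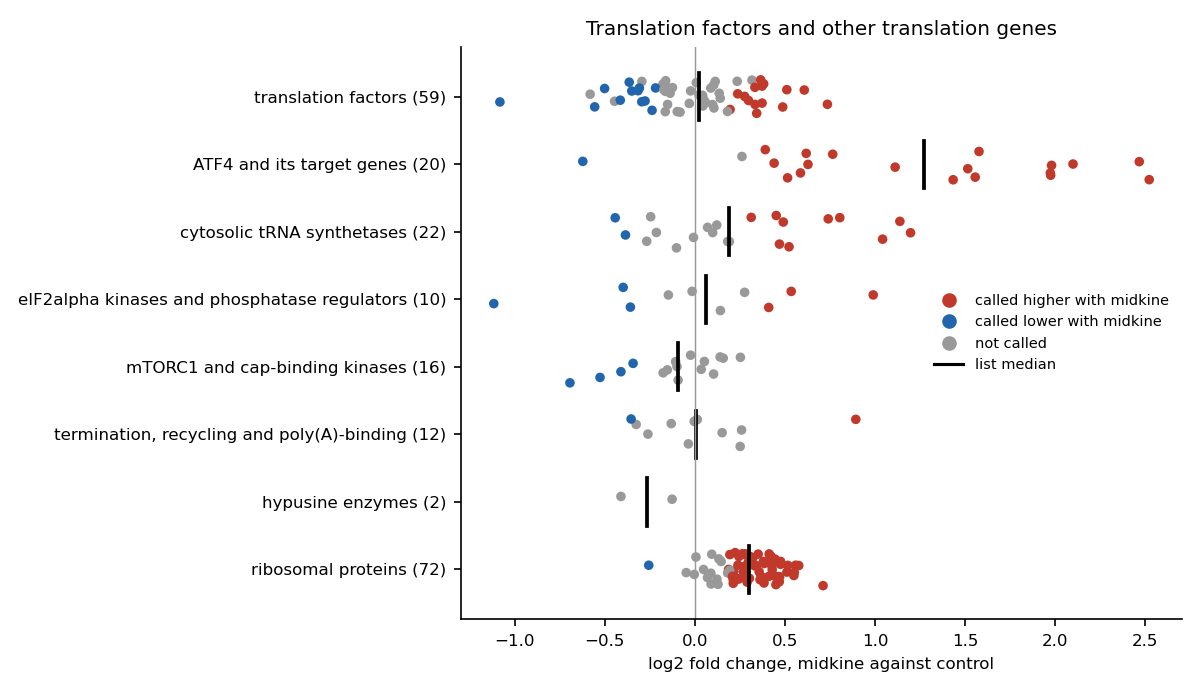
Log2 fold change of midkine against control for the translation factors and 7 other gene lists, 1 point per gene tested (number in brackets), with the list median as a black line. The translation factors centre on 0.02, ATF4 and its target genes on 1.27 and ribosomal proteins on 0.30.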

How the data were processed

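The authors deposited a signal table of normalised read counts, reads divided by a size factor per library, for 14912 gene symbols in 6 libraries. Per the submitters' processing notes, the tools were DESeq2, HTSeq, SAMtools (0.1.19), Bowtie (1.0.0), TopHat2 (2.0.10) and FastQC (0.11.0), and the builds mm10 and GRCm38. The sources used here give neither the annotation nor the strand setting. Each value was a whole multiple of 1 read (0.916 to 1.13 in the 6 columns, tolerance 1e-06, 100% whole), so reads could be recovered. RNA integrity averaged 8 (range 5 to 10), per the labels, and no values for single samples are given there.

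Genes with a mean of at least 10 were tested with limma 3.58.1 (variance trend, R 4.3.3) on log2(value + 1) of the deposited values, with Benjamini-Hochberg adjustment over 11844 genes, at 0.05. A fold change on this log2 scale understates the change of low genes. edgeR 4.0.16 and DESeq2 1.42.0 were run on the recovered reads as alternatives, beside other filters, pseudocounts, thresholds and scalings, a replicate block and leaving out each library. The edgeR test called 5157 genes, against 5059 by limma. The fits were also run on simulated data, and no outcome of that run is given here. Each library was counted as 1 sample. Replicates differed by more than counting noise in each pair (chi-square of 2.41 to 12.0 per degree of freedom). Such spread may be technical, so it cannot show whether the libraries came from separate mice or cultures.

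The members, lists and alternatives were chosen with earlier results of these data known. Values in every library are given for 20 members: called members with the smallest p whose groups do not overlap, and 11 factors picked for their role. From each other list up to 4 called genes with the smallest p were named, or 2 genes where none was called. Other genes were named after their values were seen. A result for 1 gene of the other lists is not reported here. Positions are from GENCODE vM21 on GRCm38, where all 60 members were found; 12 members share exon positions with an opposite-strand tested gene and 2 with a same-strand one. The sources used here name no molecular identifiers. Tables and figures were made in Python 3.11.15 with matplotlib 3.10.9, pandas 2.3.3 and NumPy 2.4.6.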

Additional observations from a re-analysis of the deposited data

How the results depend on the processing

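The count of members called higher (15) was 11 to 13 when a library was left out, and that of members called lower (12) was 8 to 12. Over all genes tested, the number called also fell, from 5059 to between 4305 and 4563. The members' median log2 fold change was then between -0.02 and 0.06. With no variance trend 5 members were lower. Total counts gave 3 higher, 28 lower and a median of -0.23, and total counts without ribosomal RNA rows 19 lower and a median of -0.055. edgeR gave 15 and 12, DESeq2 11 and 11. Among the genes of the 6 other lists (32 higher, 11 lower), total counts gave 32 lower and total counts without ribosomal RNA rows 17 lower. Leaving out a library gave 29 to 32 higher and 9 to 11 lower in these lists. The value changed sign in at least 1 alternative for 20 members, 17 with total counts, 6 with total counts without ribosomal RNA rows and 5 with quantile normalization. Those called before or after the change were, with total counts, Eif1 (-0.063), Eif3i (-0.020), Eif3a (-0.20) and Eif5b (-0.25), and, with quantile normalization, Eef1b2 (-0.25). The cause was not tested. Among the calls ended were, with total counts, Eif2s3x, Eif3f, Eif3k, Eif4b and Eif4ebp1, with DESeq2, Eif1, Eif2b3, Eif3i, Eif4e2, Eef2kmt and Mlst8, and, with no variance trend, Eif2s1, Eif3b, Eif4a1, Eif4ebp2, Eif4g1, Eif6 and Eef1a1. Same-numbered samples did not deviate together (correlations -0.0097, 0.029 and -0.058). A correlation over many genes cannot exclude a shared origin that acts on few of them, so pairing was not decided. A fit with a replicate block called 16 members higher and 12 lower. The 3 libraries per group, and few reads for Eif2b1 (112 over the control libraries) and Eif5a2 (52), limit what could be called.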
